A study of Mus musculus with 10 samples.

Results

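Intergenic regions at 3 to 50 kb from genes were examined in ATAC-seq peak lists of neural stem cell cultures from the mouse subependymal zone (SEZ). ATAC-seq uses a transposase that cuts and tags DNA where chromatin is accessible, so a peak marks an accessible stretch. The peaks of all 10 lists were merged into 99231 regions with a peak in at least 2 lists. A region was included when its summit, the position of its strongest peak, lay on an autosome, outside every annotated gene body and between 3 and 50 kb from the nearest start of a protein-coding gene. This rule gave 15206 regions, which were 15.3% of all regions and 15.8% of the 96188 autosomal ones. They are called near intergenic regions and are named here by the nearest protein-coding start, which need not be the gene that a region acts on.

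The cultures came from 10-week-old wild-type (WT) mice and from mice that lack Cdkn1b (p27KO), the gene of p27, which inhibits cyclin-dependent kinases and so holds back the cell cycle. Proliferating cells (PRO) were neurospheres in medium holding EGF (20 ng/ml) plus FGF (10 ng/ml), taken at 3 days in vitro per the labels, although the sources differ on this time. Early differentiation (DIFF) meant 2 days on Matrigel with FGF followed by 24 h in 2% serum with no mitogens. The libraries numbered 3 for each WT condition and 2 for each p27KO condition, all from 50000 cells. PRO and DIFF therefore differed in mitogens, substrate and serum together, and these cannot be told apart. The study's methods speak of biological replicates without saying, for these libraries, which animals or cultures they came from, and p-values measure the spread between libraries.

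The lists held 57534 to 91801 peaks, and their read depth is not part of the files. WT DIFF replicate 3 stood apart with 88738 peaks against 61783 and 57534 in the other WT DIFF libraries, so results that rest on it are given with and without it. For the p27KO libraries a free-text label speaks of WT cells, against the titles and genotypes used here. The body of Cdkn1b was overlapped by a peak in each of 6 WT lists and in 0 of the p27KO ones, as the titles have it. Promoters of the Y-linked genes Ddx3y, Eif2s3y, Uty and Kdm5d were accessible in all 6 WT lists and in 0 of the p27KO lists, so sex and genotype cannot be told apart here. Of 10 neural stem cell markers, 9 had a promoter peak in all 10 lists. Of 9 microglia markers, 6 had a promoter peak in no list and 2 in all 10, and of 8 markers of endothelium and mural cells, 2 had none and 2 had a peak in all 10. A peak in all 10 lists was also found for 3 of 4 mature neuron markers, 3 of 6 ependymal markers and 1 of 4 mature oligodendrocyte markers. Promoter peaks alone therefore did not tell stem cells apart from these cell types.

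Intergenic accessible regions at such distances include enhancers, which hold short binding motifs for transcription factors and can act on a promoter by looping. In neural stem cells, mitogens such as EGF and FGF act through the MAP kinase cascade on immediate early factors including FOS and JUN, which bind together as AP-1. Basic helix-loop-helix factors bind E-boxes, nuclear factor I (NFI) proteins are known for roles in glial development and stem cell quiescence, and TEAD proteins bind DNA for the YAP and TAZ coactivators.

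Windows that reach 100 bases to each side of the summit are shown for the 3 strongest falls and the 3 strongest rises at DIFF in WT, since their motifs recur in the results. Capitals mark every match, on either strand, to the AP-1 motif (TGANTCA), the E-boxes CAGCTG and CAGATG, the NFI motif (TTGGCA) and the TEAD motif (GGAATG). All are read from the plus strand of GRCm38. The Tln2 window held a CAGATG and a TEAD match, the Ifnar1 window 2 matches to CAGATG, and the Ccnl1 window 3 matches to AP-1 and 1 to CAGCTG.
Tln2, chr9:67565841-67566041: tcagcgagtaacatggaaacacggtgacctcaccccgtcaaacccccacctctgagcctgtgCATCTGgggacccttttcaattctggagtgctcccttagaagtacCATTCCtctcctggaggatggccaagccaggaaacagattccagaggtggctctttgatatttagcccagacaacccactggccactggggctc
Ifnar1, chr16:91478170-91478370: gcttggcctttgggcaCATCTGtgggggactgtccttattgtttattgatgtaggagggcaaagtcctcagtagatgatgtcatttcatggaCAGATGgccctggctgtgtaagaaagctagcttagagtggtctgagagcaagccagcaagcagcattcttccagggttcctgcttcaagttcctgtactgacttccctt
Ccnl1, chr3:65922582-65922782: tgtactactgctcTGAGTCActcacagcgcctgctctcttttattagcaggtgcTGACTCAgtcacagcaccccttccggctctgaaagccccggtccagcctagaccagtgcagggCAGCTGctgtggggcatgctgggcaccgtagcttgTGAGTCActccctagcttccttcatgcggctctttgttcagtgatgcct
Ifit3, chr19:34577248-34577448: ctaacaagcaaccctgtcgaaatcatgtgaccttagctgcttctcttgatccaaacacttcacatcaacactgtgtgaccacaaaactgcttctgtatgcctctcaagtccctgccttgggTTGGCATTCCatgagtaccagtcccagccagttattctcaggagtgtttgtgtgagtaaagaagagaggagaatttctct
P4ha1, chr10:59310777-59310977: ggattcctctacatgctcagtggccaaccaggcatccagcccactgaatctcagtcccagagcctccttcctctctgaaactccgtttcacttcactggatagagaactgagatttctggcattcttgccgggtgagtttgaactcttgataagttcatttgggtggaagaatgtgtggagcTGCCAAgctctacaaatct
Arhgap5, chr12:52493486-52493686: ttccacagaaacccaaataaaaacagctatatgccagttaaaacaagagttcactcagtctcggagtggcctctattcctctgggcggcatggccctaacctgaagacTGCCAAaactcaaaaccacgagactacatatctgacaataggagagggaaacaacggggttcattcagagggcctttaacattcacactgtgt

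Each of the 3 windows that rose held 1 match to the NFI motif. Near Ifit3 the NFI and TEAD matches shared bases and so cannot be told apart as sites. A fall near Id3 and a rise near Cdk1 are shown because they recur among the gene groups described further on, and the window near Dpy19l1 because it ranked highest among the regions with a peak in every list. The Dpy19l1 window held none of the 5 motifs.
Id3, chr4:136117121-136117321: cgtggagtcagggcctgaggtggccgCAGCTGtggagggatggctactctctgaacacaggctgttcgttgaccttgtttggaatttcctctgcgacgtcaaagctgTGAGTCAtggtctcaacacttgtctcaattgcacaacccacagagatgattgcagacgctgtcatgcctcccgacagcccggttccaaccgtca
Cdk1, chr10:69326565-69326765: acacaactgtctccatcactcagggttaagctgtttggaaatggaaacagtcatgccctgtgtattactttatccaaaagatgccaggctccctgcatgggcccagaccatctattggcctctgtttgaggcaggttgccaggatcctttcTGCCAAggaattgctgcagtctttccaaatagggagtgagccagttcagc
Dpy19l1, chr9:24541996-24542196: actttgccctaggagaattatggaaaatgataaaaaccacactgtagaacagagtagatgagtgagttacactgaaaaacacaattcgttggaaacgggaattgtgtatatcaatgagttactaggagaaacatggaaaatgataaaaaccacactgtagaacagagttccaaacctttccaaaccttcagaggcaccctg

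The near intergenic regions were spread over 7549 nearest genes. For 3748 of these genes a single region was found, while 462 had at least 5 and 51 had at least 8. The median distance to the start was 19002 bp, with quartiles at 10118 and 31148 bp, and 71.5% of the regions lay upstream. Their median width was 434 bp, between 81 and 7455 bp. At the limits of the rule, the region nearest to a start was 3003 bp upstream of Cdkn1c and had peaks in 7 lists, while one 2999 bp upstream of Gdf6, with peaks in 5 lists, was left out. At the far limit, a region 49993 bp from Adamts16 with peaks in 4 lists was kept and one 50001 bp from C1ql2 with peaks in all 10 was left out.

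In base composition they resembled other distal regions more than promoters. The median GC content of the window was 50.8%, against 63.7% at promoters, 50.2% at distal regions inside gene bodies (genic distal) and 48.3% at intergenic regions beyond 50 kb (far intergenic). The summit fell in a repeat, as the soft-masked genome marks it, in 11.3% of near intergenic regions, between the 8.67% of genic distal and the 13.1% of far intergenic ones. A peak in all 10 lists was found for 5022 regions, or 33%. The share was 73.6% at promoters, 32.2% at genic distal and 27.6% at far intergenic regions. At the other end, 1975 near intergenic regions (13%) had a peak in just 2 lists.

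The number of near intergenic regions with a peak was 11122, 11139 and 10634 in the WT PRO libraries and 8147, 7610 and 11588 in the WT DIFF libraries. It was 12241 and 11422 in p27KO PRO and 8667 and 10111 in p27KO DIFF. The DIFF libraries were lower in p27KO with no overlap, whereas in WT the third DIFF library lay above all PRO libraries. The mean DIFF minus PRO difference within genotypes was -2146 regions (exact permutation test, two-sided, p = 0.0667, adjusted over 8 tests p = 0.267), and the smallest p that this design allows is 0.01667. Without WT DIFF replicate 3 it was -2764 regions (exact permutation test, adjusted p = 0.0333). List lengths moved the same way. With the 57000 strongest peaks of each list the difference was -388.9 regions (exact permutation, adjusted p = 0.222), so the share of each list was examined as well.

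As a share of the autosomal regions in a list, near intergenic regions made up 15.6%, 15.8% and 15.7% in WT PRO and 14.7%, 14.7% and 15.3% in WT DIFF. The shares were 15.9% and 15.8% in p27KO PRO against 14.6% and 15.5% in p27KO DIFF. Every DIFF library thus lay below every PRO library of its genotype. The difference was -0.802 percentage points (exact permutation p = 0.0167, the smallest possible, adjusted p = 0.133), which did not pass after adjustment over the 8 tests. Without WT DIFF replicate 3 it was -0.908 points (exact permutation, adjusted p = 0.0333), and with the 57000 strongest peaks of each list -0.401 points (exact permutation, adjusted p = 0.222). Between genotypes this share differed by 0.139 points (exact permutation, p27KO minus WT, adjusted p = 0.514).

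The strength and width of the peaks gave no difference that passed. The median percentile of fold enrichment within a list, over near intergenic regions with a peak, was 44.2 ± 0.088 in WT PRO (SD, n = 3) against 42.8 ± 2.45 in WT DIFF (SD, n = 3). For p27KO it was 45 ± 0.30 in PRO (SD, n = 2) against 44.7 ± 0.858 in DIFF (SD, n = 2). The DIFF minus PRO difference was -0.807 (exact permutation, adjusted p = 0.422) and the p27KO minus WT difference 1.33 (exact permutation, adjusted p = 0.32). Without WT DIFF replicate 3 these were -1.5 (exact permutation, adjusted p = 0.08) and 2.02 (exact permutation, adjusted p = 0.0333). DIFF minus PRO was -0.356 without WT DIFF replicate 2 and -0.125 with the 57000 strongest peaks. Median peak widths ranged from 252.5 to 328 bp over the libraries, and neither contrast passed (exact permutation, adjusted p = 0.32 for each).

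Set against other classes of regions, the near intergenic ones were present less often than promoters in all 10 libraries. The share with a peak was 72.1% ± 1.89 in WT PRO (SD, n = 3) against 59.9% ± 14.2 in WT DIFF (SD, n = 3). For p27KO it was 77.8% ± 3.81 in PRO (SD, n = 2) against 61.7% ± 6.71 in DIFF (SD, n = 2). Relative to genic distal regions of the same library, near intergenic regions were ahead by 2.31, 2.49 and 2.66 points in WT PRO and by 0.0964, 0.448 and -0.947 points in WT DIFF. The difference was 2.98 and 3.5 points in p27KO PRO against -0.478 and 0.995 in p27KO DIFF. DIFF minus PRO was -2.8 points (exact permutation p = 0.0167, adjusted over 6 tests p = 0.1), with no overlap in either genotype but no pass after adjustment. Without WT DIFF replicate 3 the value was -2.6 points (exact permutation, adjusted p = 0.0333). Relative to promoters, DIFF minus PRO was -7.83 points (exact permutation, adjusted p = 0.2), and without WT DIFF replicate 3 it was -10.3 points (exact permutation, adjusted p = 0.0333). With the 57000 strongest peaks of each list it was -1.85 points (exact permutation, adjusted p = 0.433). Relative to far intergenic regions DIFF minus PRO was -2.25 points (exact permutation, adjusted p = 0.375), and -1.97 without WT DIFF replicate 3. However, it was -0.378 without p27KO DIFF replicate 1 and -4.13 without p27KO DIFF replicate 2.

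**Figure D1:**
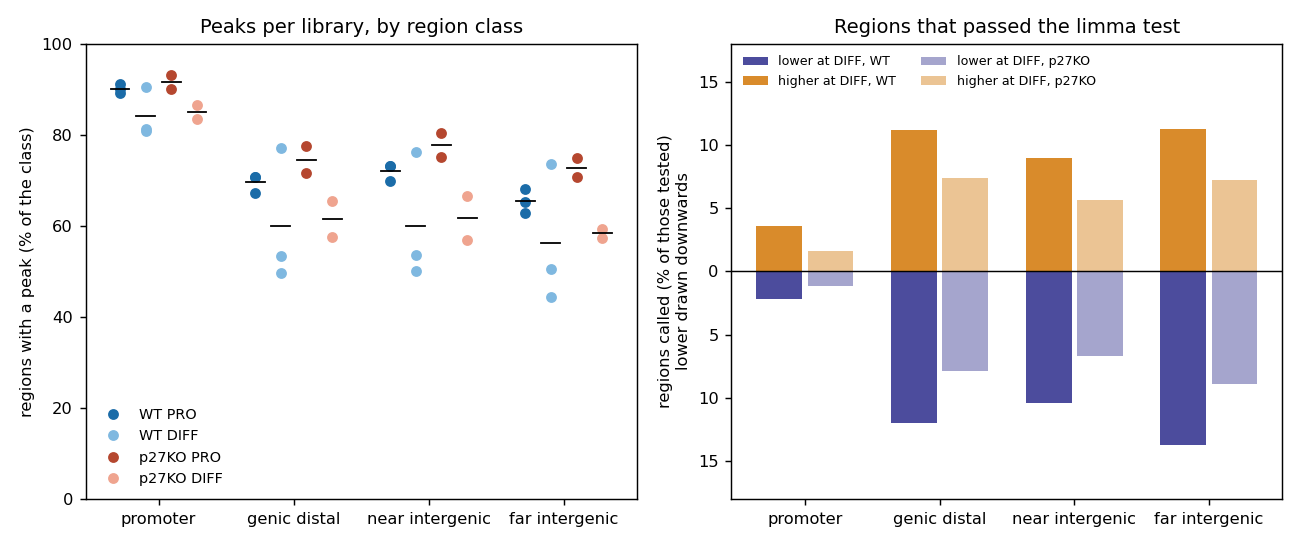
Left, percent of the regions of each class with a peak, with a point for each library and a line for the group mean. Right, percent of tested regions called lower (drawn downwards) or higher at DIFF by limma. Near intergenic regions sit well below promoters on the left, with WT DIFF replicate 3 at 76.2% above the other WT DIFF libraries, and between promoters and genic distal regions on the right.

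To compare accessibility region by region, regions were ranked within each list by their highest fold enrichment and the ranks turned into normal scores. Read depth was not used directly. Regions without a peak shared the lowest rank, so their score depended on how many peaks the list held. Changes are differences of these scores and not log2 folds. The test covered 70627 regions with a peak in at least 5 lists, of which 10706 were near intergenic (70.4% of them), and 4500 near intergenic regions were not tested. In WT, 2077 near intergenic regions changed between PRO and DIFF (limma, adjusted p under 0.05), of which 1117 fell and 960 rose. This was 19.4% of those tested, beside 19.2% of all regions tested. The falls made up 10.4% against 10.1% of all regions, and the rises 8.97% against 9.15%. The near intergenic regions thus changed about as often as the whole table. The WT count was 1283, 1231 and 1302 without WT PRO replicate 1, 2 and 3. Without WT DIFF replicate 1, 2 and 3 it was 1310, 1436 and 1571. The share was 5.74% at promoters, 23.2% at genic distal and 25% at far intergenic regions.

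In p27KO, 1322 near intergenic regions changed, or 12.3%, the same as the 12.3% of all regions. Of these, 720 fell (6.73%, against 6.48% of all regions) and 602 rose (5.62% against 5.83%). The p27KO groups had 2 libraries each and the WT groups 3, so the lower count in p27KO cannot be read as a weaker change. Without p27KO PRO replicate 1 or 2 the p27KO count was 634 or 483, and without p27KO DIFF replicate 1 or 2 it was 466 or 486. Farther regions fell somewhat more often in WT, at 9.32% for 3 to 10 kb, 10% for 10 to 25 kb and 11.6% for 25 to 50 kb, which is given as a description with no test.

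The WT and p27KO changes used separate libraries and can be set side by side. Their p-values, however, shared an estimate of the spread taken over all 10 libraries, so passing in WT and passing in p27KO were not independent. Of the 1117 regions that fell in WT, 1092 had the same sign in p27KO, 848 had an unadjusted limma p under 0.05 there and 569 passed after adjustment. Their median change was -1.06 in WT and -0.98 in p27KO. Of the 960 that rose in WT, 926 had the same sign in p27KO, 705 had an unadjusted limma p under 0.05 and 478 passed, with medians of 1.14 and 0.98. The shared falls were 50.9% of the WT falls and 79% of the p27KO falls, and the shared rises were 49.8% and 79.4%. No region passed in both genotypes with opposite signs (0 of 1047). A tested region needed a peak in at least 5 lists, and WT had 3 libraries per condition. Regions with peaks in a single WT condition thus entered only with p27KO peaks as well. This agreement and the interaction count were therefore partly set by the filter. The interaction, which tests whether the change differs between genotypes, was called at 0 near intergenic regions and 0% of all regions. An unadjusted limma p under 0.05 was found for it at 474 of the 10706 tested, where a fraction of 0.05 is expected with no difference. The interaction was called at 5 when regions in at least 2 lists were tested.

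**Figure D2:**
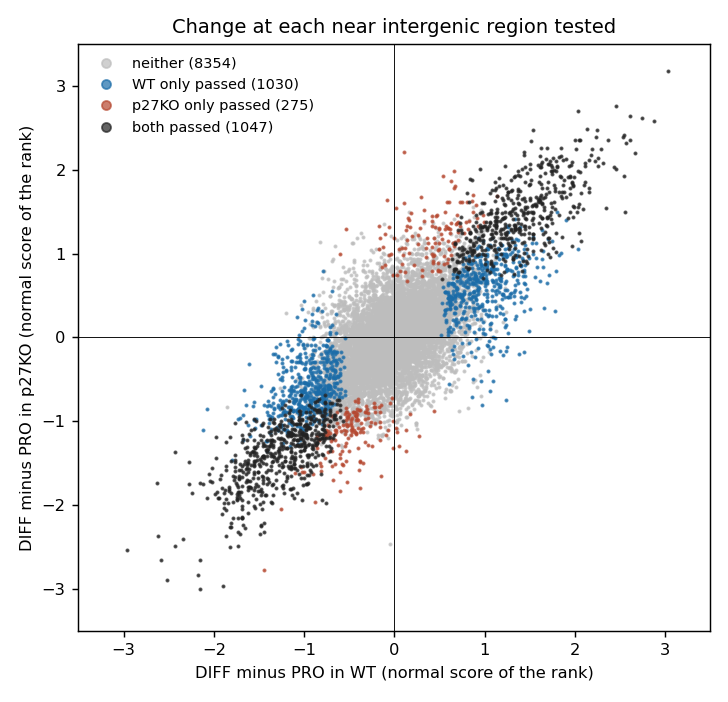
Each point is 1 of the 10706 near intergenic regions tested, with the DIFF minus PRO change in WT on the horizontal axis and in p27KO on the vertical axis, both as differences of normal scores. The 1047 regions that passed in both genotypes all lie in the lower left or upper right part of the plot, and 1030 passed in WT alone and 275 in p27KO alone, without a test that these differ.

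By presence alone, 757 near intergenic regions (4.98%) had a peak in every WT PRO list and in no WT DIFF list, against 4.32% of all regions. The opposite pattern was found for 245 (1.61%, against 1.86%). In p27KO, 1883 regions (12.4%, against 10.9%) were present in both PRO lists and absent from both DIFF lists, and 472 (3.1%, against 3.32%) showed the opposite. In both genotypes together, 462 regions (3.04%, against 2.61%) were lost and 134 (0.881%, against 0.959%) gained. These counts depend on the number and length of the lists. Without WT DIFF replicate 3 the count lost in WT was 1716, and without WT DIFF replicate 1 or 2 the count gained was 417 or 513. In p27KO the count lost was 3205 without DIFF replicate 2, and the count gained was 821 without PRO replicate 1 and 975 or 736 without DIFF replicate 1 or 2.

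The largest fall in WT was 6.2 kb upstream of Tln2, which encodes a talin that links integrins to actin. Its fold enrichment was 15.8, 14 and 13.5 in WT PRO and 11.5 and 14.9 in p27KO PRO, and no DIFF library had a peak. The groups did not overlap in either genotype. The change was -2.96 ± 0.25 (SE, limma adjusted p = 7.69e-05) in WT and -2.54 ± 0.31 (SE, limma adjusted p = 0.000725) in p27KO.

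Upstream of Ifnar1, a subunit of the type I interferon receptor, the fold enrichment was 14, 14.6 and 9.52 in WT PRO and 6.71 and 10.3 in p27KO PRO. Here too all DIFF libraries were without a peak. The region changed by -2.63 ± 0.29 (SE, limma adjusted p = 0.000194) in WT and by -1.75 ± 0.36 (SE, limma adjusted p = 0.00908) in p27KO, a call lost without p27KO DIFF replicate 1 or 2 (limma adjusted p = 0.0548 and 0.0772). Downstream of Ccnl1, which encodes cyclin L1, the region with 3 AP-1 matches had 15.7, 16 and 15.1 in WT PRO and 15.2 and 19 in p27KO PRO. In DIFF it kept weak peaks, with 3.54, none and 4.23 in WT and 4.84 and 3.69 in p27KO. It changed by -2.62 ± 0.28 (SE, limma adjusted p = 0.000162) in WT and by -2.37 ± 0.34 (SE, limma adjusted p = 0.00157) in p27KO.

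The other 7 of the 10 largest falls were near Nps, Hhipl2, Gnaz, Myl1, Kcnf1, Cysltr2 and Prss2. Their WT changes ran from -2.58 at Nps, which encodes neuropeptide S, to -2.15 at Prss2, a trypsinogen gene. All 7 fell in p27KO as well, from -2.90 at Hhipl2 to -1.49 at Myl1 (limma adjusted p at most 0.00689). Of these p27KO calls, Nps was lost without PRO replicate 2 (limma adjusted p = 0.054) or DIFF replicate 1 (0.0708), Myl1 without PRO replicate 2 (0.0537) or DIFF replicate 2 (0.0724) and Kcnf1 without PRO replicate 2 (0.064) or DIFF replicate 1 (0.0542) of p27KO. Among these 10 windows, an AP-1 match was found near Ccnl1, Nps, Hhipl2, Gnaz, Kcnf1 and Cysltr2.

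The largest rise in WT was 6.2 kb upstream of Ifit3, an interferon-induced gene. Its fold enrichment was 13.9, 10.6 and 13.3 in WT DIFF and 14.5 and 12.8 in p27KO DIFF. Of the PRO libraries, WT replicate 3 alone had a peak, at 2.68. The change was 3.03 ± 0.25 (SE, limma adjusted p = 7.2e-05) in WT and 3.18 ± 0.31 (SE, limma adjusted p = 0.000359) in p27KO.

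Upstream of P4ha1, a subunit of the prolyl hydroxylase that modifies collagen, no PRO library had a peak. WT DIFF had 11.1, 9.95 and 12.4 and p27KO DIFF 8.18 and 11.5. The region changed by 2.87 ± 0.17 (SE, limma adjusted p = 4.76e-05) in WT and by 2.58 ± 0.21 (SE, limma adjusted p = 0.000284) in p27KO. Arhgap5, which encodes a GTPase-activating protein, had the same pattern 10.4 kb upstream, with 8.85, 10.6 and 11.9 in WT DIFF and 8.92 and 11.4 in p27KO DIFF. It changed by 2.74 ± 0.17 (SE, limma adjusted p = 5.25e-05) in WT and by 2.62 ± 0.21 (SE, limma adjusted p = 0.000284) in p27KO.

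The other 7 of the 10 largest rises were near Hmgn3, Ripk4, Mgat4e, Rab11fip2, Ppp1r42, Tmem160 and Braf, the last a kinase of the MAP kinase cascade. They changed by 2.66 at Hmgn3 to 2.54 at Braf in WT and all rose in p27KO, from 1.496 at Ppp1r42 to 2.64 at Mgat4e (limma adjusted p at most 0.0363). All 20 regions named so far therefore passed in both genotypes with the same sign. Those near Tln2, Ifnar1, Hhipl2, Cysltr2, P4ha1, Arhgap5 and Rab11fip2 had peaks in 5 lists, the fewest that the test admits. With 3 WT libraries per condition, they could be tested only because p27KO lists had peaks too. The same held at least near Nps, Gnaz, Ifit3, Mgat4e, Hmgn3 and Ripk4, which had peaks in fewer than 5 WT lists. The agreement of all these regions in p27KO was thus partly set by the filter. The p27KO call near Ppp1r42 was lost without any of the p27KO libraries (limma adjusted p = 0.0638 to 0.24) or any WT DIFF library (0.0552 to 0.0561) and with regions in at least 2 lists (0.0749), and that near Braf without p27KO DIFF replicate 2 (0.0507).

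**Figure D3:**
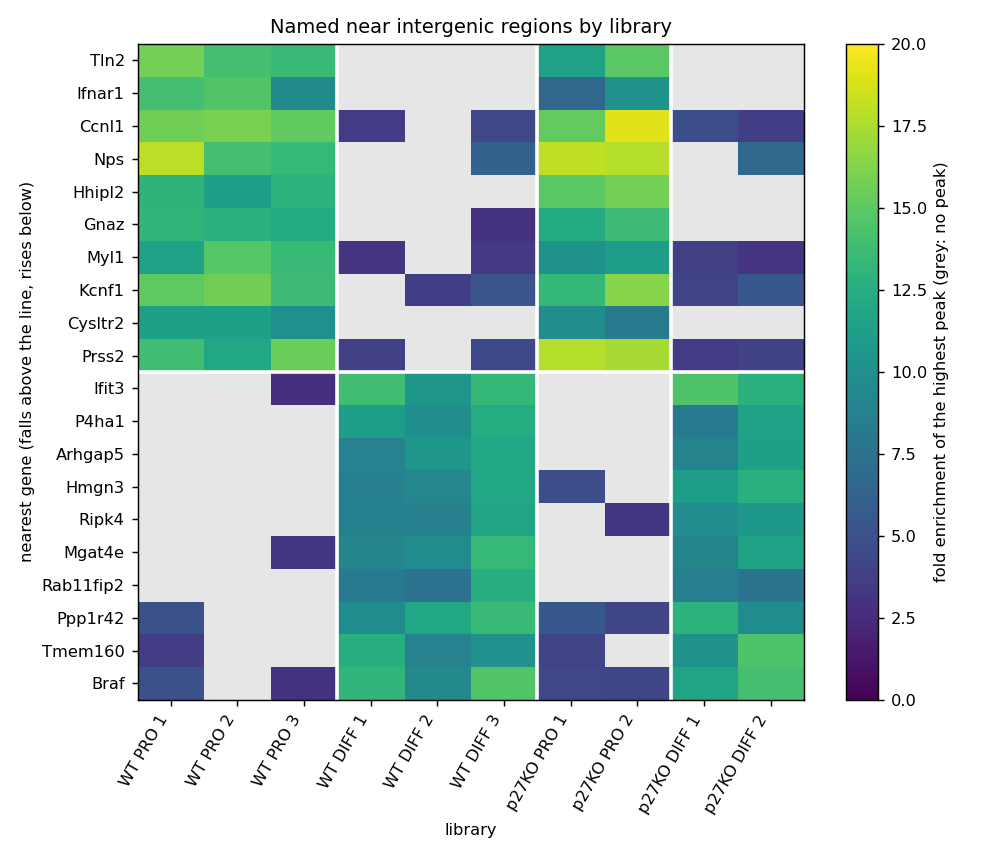
Fold enrichment of the highest peak in each of the 10 libraries for the 10 largest falls (above the line) and 10 largest rises (below it) in WT, with grey where no peak was called. The falls are bright in PRO columns and dark or grey in the DIFF columns of both genotypes, and the rises show the opposite.

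The nearest genes were then grouped. Near neural stem cell regulators, 53 regions lay closest to 18 genes, and 40 were tested. In WT 4 fell and 8 rose (30% beside 19.2% of all regions), and in p27KO 4 fell and 2 rose (15% beside 12.3%). Downstream of Nes (chr3:87981448-87983375), the gene of the intermediate filament nestin, the fold enrichment was 5.48, 6.3 and 4.62 in WT PRO and none, none and 2.31 in WT DIFF. It was 6.11 and 5.46 in p27KO PRO and 3.31 and 2.59 in p27KO DIFF. This region fell by 0.98 in WT (limma adjusted p = 0.00433), and its p27KO change was -0.71 (limma adjusted p = 0.0706). With peaks of a −log10 q-value of at least 5 the WT call was lost (-0.67, limma adjusted p = 0.0827), and ranked by −log10 p-value the p27KO change passed (-1.27, limma adjusted p = 0.00921). A region 42.1 kb downstream of Sox9, a transcription factor of stem cells and glia, changed by -0.89 in WT (limma adjusted p = 0.0452). That call was lost without WT DIFF replicate 1, 2 or 3, at adjusted p = 0.104, 0.0805 and 0.206, and without either p27KO DIFF library, at 0.0884 and 0.0888. It was also lost when regions were ranked by −log10 p-value (limma adjusted p = 0.0714) and when the groups compared were fitted alone (0.0588).

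The largest rises in this group were near Prom1, the gene of the surface marker CD133, and near Hopx, a homeodomain-only protein. They changed by 1.17 (limma adjusted p = 0.0272) and 0.96 (limma adjusted p = 0.0253) in WT, and the fold enrichments of the WT groups overlapped at both. The p27KO changes were 0.37 and 0.66 and did not pass (limma adjusted p = 0.614 and 0.223). The Prom1 call was lost without WT PRO replicate 2 or 3 or WT DIFF replicate 1 or 2 (limma adjusted p = 0.0763 to 0.0872), with regions in at least 2 lists (0.0521) and with the groups compared fitted alone (0.0509). The Hopx call was lost without WT PRO replicate 1 or 2 or any WT DIFF library (limma adjusted p = 0.0571 to 0.0941).

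Near genes of neuronal differentiation 41 regions were tested. In WT 6 fell and 2 rose (19.5% beside 19.2%) and in p27KO 2 fell and 1 rose (7.32% beside 12.3%). Upstream of Sp8, a zinc finger factor of olfactory interneurons, the fold enrichment was 7.76, 4.76 and 6.59 in WT PRO and 4.07 and 5.63 in p27KO PRO, with no peak in any DIFF library. The change was -1.33 (limma adjusted p = 0.00653) in WT and -0.86 (limma adjusted p = 0.134) in p27KO. This region needed p27KO peaks to be tested, so the shared sign was partly set by the filter. The largest rise was 35.2 kb upstream of Sox4, a factor of newborn neurons, where weak peaks of 3.47 and 4.23 appeared in 2 of 3 WT DIFF libraries and none in WT PRO. The test needed peaks in at least 5 lists, so PRO and DIFF lists of p27KO had peaks there too. The WT change of 0.94 (limma adjusted p = 0.0253) did not pass without WT PRO replicate 1, 2 or 3 (limma adjusted p = 0.102, 0.104 and 0.0845) or with regions in at least 2 lists (0.0658).

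Near genes of the oligodendrocyte lineage 17 regions were tested, of which 3 fell and 0 rose in WT (17.6% beside 19.2%) and 1 fell and 0 rose in p27KO (5.88% beside 12.3%). The largest fall was 49.2 kb downstream of Nkx2-2, a homeodomain factor of oligodendrocyte precursors. Its fold enrichment was 10.5, 9.3 and 7.81 in WT PRO and 3.04, none and 3.81 in WT DIFF. In p27KO it was 11.7 and 14.9 in PRO and 3.57 and none in DIFF. It changed by -1.44 (limma adjusted p = 0.0032) in WT and by -2.21 (limma adjusted p = 0.00163) in p27KO.

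Near astrocyte genes 34 regions were tested. In WT 5 fell and 6 rose (32.4% beside 19.2%) and in p27KO 2 fell and 4 rose (17.6% beside 12.3%). Both p27KO falls were 26.3 and 32.8 kb upstream of Id3, a target of BMP signalling that inhibits helix-loop-helix factors, and both of its windows held an AP-1 match. The nearer one had 11, 9.3 and 7.5 in WT PRO, 9.23 and 9.71 in p27KO PRO and no peak at DIFF. It changed by -1.95 (limma adjusted p = 0.000249) in WT and -1.92 (limma adjusted p = 0.00152) in p27KO. It was tested only because p27KO lists had peaks too, so this agreement was partly set by the filter. The farther one changed by -1.46 (limma adjusted p = 0.00551) in WT and -1.74 (limma adjusted p = 0.00993) in p27KO, where the call was lost without DIFF replicate 1 or 2 (limma adjusted p = 0.0596 and 0.0831).

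The opposite pattern was found 31.1 kb upstream of Aqp4, the gene of the astrocyte water channel. WT DIFF had 7.59, 5.78 and 6.3 and p27KO DIFF 6.88 and 5.96, while no PRO library had a peak. This region could be tested only because p27KO lists had peaks too, so its agreement between genotypes was partly set by the filter. The change was 2.03 (limma adjusted p = 0.000143) in WT and 1.99 (limma adjusted p = 0.000944) in p27KO. Upstream of Fgfr3, a receptor of FGF found in astrocytes, the change was 1.71 (limma adjusted p = 0.000439) in WT and 1.14 (limma adjusted p = 0.0193) in p27KO. The p27KO call was lost without p27KO PRO replicate 1 or 2 or DIFF replicate 1 (limma adjusted p = 0.0718, 0.141 and 0.132) and with regions in at least 2 lists (0.0676).

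Near genes of mitogen signalling feedback and immediate early genes 48 regions were tested. In WT 7 fell and 6 rose (27.1% beside 19.2%) and in p27KO 5 fell and 3 rose (16.7% beside 12.3%). Upstream of Atf3 (chr1:191254161-191254817), a stress-induced factor of the AP-1 family, the fold enrichment was 10.6, 9.8 and 12 in WT PRO and none, none and 4.87 in WT DIFF. It was 12.5 and 10.7 in p27KO PRO and 3.84 and 4.26 in p27KO DIFF. The change was -1.76 (limma adjusted p = 0.000564) in WT and -1.40 (limma adjusted p = 0.0102) in p27KO. Downstream of Spry2, an inhibitor of receptor tyrosine kinase signalling, the peak remained in all 10 lists at a lower rank. Its fold enrichment was 15.8, 19.4 and 17.9 in WT PRO against 8.6, 9.25 and 14.7 in WT DIFF, with changes of -1.25 (limma adjusted p = 0.00689) in WT and -1.33 (limma adjusted p = 0.0205) in p27KO. Without p27KO PRO replicate 1 or p27KO DIFF replicate 1 or 2 the p27KO calls were lost near Atf3 (limma adjusted p = 0.0593, 0.0548 and 0.0762) and Spry2 (0.149, 0.13 and 0.0769).

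The largest rises of this group were near Jund, an AP-1 subunit, at 1.25 (limma adjusted p = 0.00395), and near Ier2, at 1.23 (limma adjusted p = 0.0159). In p27KO they were 0.81 and 0.99 and did not pass (limma adjusted p = 0.0981 and 0.118), although Jund passed with the 57000 strongest peaks (0.0146). The fold enrichments of the WT groups overlapped at both. The Ier2 call was lost without WT PRO replicate 1 or 3 (limma adjusted p = 0.0825 and 0.0797).

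Fos was among the 8 genes with the most near intergenic regions, with 11 between 4962 and 49805 bp from its start. None of the 7 tested was called in either genotype (0 lower and 0 higher by limma), beside 19.2% of all regions in WT and 12.3% in p27KO. Whether the Fos regions differ from these shares was not tested. The strongest regions near Fos were 18.6 kb upstream and 12.3 kb downstream. The upstream one had 12.9, 14.3 and 13.1 in WT PRO and 11.9, 12.2 and 13.7 in WT DIFF, so the groups overlapped, and 14.5 and 13.7 in p27KO PRO against 13.2 and 17.5 in p27KO DIFF. The downstream one, whose window held a CArG box, the motif bound by serum response factor, had 10.8, 11.5 and 10 in WT PRO and 9.66, 11.3 and 14.9 in WT DIFF. In p27KO it had 13.6 and 12.3 in PRO and 12 and 17.6 in DIFF, again with overlap.

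**Figure D4:**
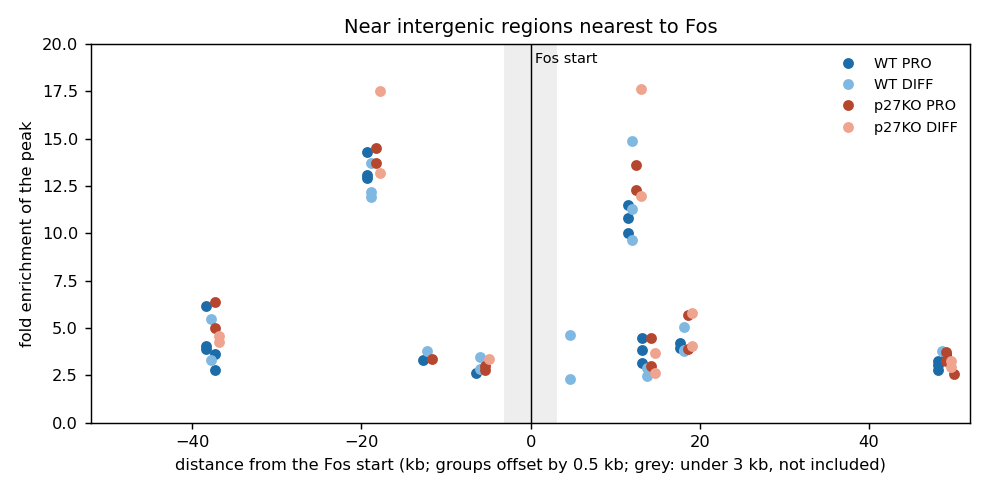
Fold enrichment of each peak at the 11 near intergenic regions closest to Fos, by distance from its start in kb, with a point for each library that had a peak, coloured by group. The 2 strongest regions sit at 18.6 kb upstream and 12.3 kb downstream, with PRO and DIFF points intermixed and p27KO DIFF replicate 2 highest at both.

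Near genes of serum, TGF-beta and cytoskeletal responses 35 regions were tested, of which 6 fell and 2 rose in WT (22.9% beside 19.2%) and 3 fell and 2 rose in p27KO (14.3% beside 12.3%). A region 10.3 kb upstream of Itga5, the integrin subunit of the fibronectin receptor, had 10.1, 7.91 and 8.65 in WT PRO, 8.87 and 8.78 in p27KO PRO and no peak at DIFF. It changed by -1.88 (limma adjusted p = 0.000249) in WT and -1.82 (limma adjusted p = 0.00166) in p27KO. Since p27KO peaks were needed for this region to be tested, the agreement was partly set by the filter. Near Actn1, which encodes an actin crosslinker, the change was 1.28 (limma adjusted p = 0.00446) in WT and 1.09 (limma adjusted p = 0.0391) in p27KO. The p27KO call was lost without any p27KO library (limma adjusted p = 0.0546 to 0.294), any WT PRO library (0.0624 to 0.069) or WT DIFF replicate 2 (0.0537). It was also lost with regions in at least 2 lists (limma adjusted p = 0.0785), in all 10 lists (0.0579) or with the groups compared fitted alone (0.0673).

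Near cell cycle genes 31 regions were tested, of which 3 fell and 6 rose in WT (29% beside 19.2%) and 2 fell and 5 rose in p27KO (22.6% beside 12.3%). The largest rise was 26.3 kb downstream of the start of Cdk1 (chr10:69326371-69327011), which encodes the kinase of mitotic entry. Its fold enrichment was 4.16, 4.53 and 4.15 in WT PRO and 11.4, 12.2 and 16 in WT DIFF. In p27KO it was 4.07 and 3.92 in PRO and 12.7 and 17.2 in DIFF. The groups were far apart in both genotypes, with changes of 2.23 ± 0.19 (SE, limma adjusted p = 7.69e-05) in WT and 2.39 ± 0.23 (SE, limma adjusted p = 0.000359) in p27KO. The largest fall was 7.7 kb upstream of E2f1 (chr2:154577466-154577805), a factor of S phase entry. It had 6.37, 10.8 and 4.64 in WT PRO and no peak in WT DIFF, whereas p27KO had 5.72 and 6.61 in PRO and 3.06 and 4.26 in DIFF. The change was -1.48 (limma adjusted p = 0.00589) in WT and -0.58 (limma adjusted p = 0.365) in p27KO, and the interaction did not pass (limma adjusted p = 0.9998).

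Near genes of Notch and BMP signalling 67 regions were tested, the most of any group. In WT 9 fell and 11 rose (29.9% beside 19.2%) and in p27KO 6 fell and 8 rose (20.9% beside 12.3%). The falls included both Id3 regions. Rises were found near Bambi, a decoy receptor of the pathway, at 1.98 (limma adjusted p = 0.000284), and near Bmp2, a ligand, at 1.70 (limma adjusted p = 0.00214). The p27KO changes were 1.44 (limma adjusted p = 0.00841) at Bambi and 1.18 (limma adjusted p = 0.0543) at Bmp2. The Bambi call in p27KO was lost without PRO replicate 2 or DIFF replicate 1 of p27KO (limma adjusted p = 0.0851 and 0.0663), and Bmp2 passed in p27KO without p27KO PRO replicate 1 (0.0179). Bmp2 also passed there when ranked by −log10 p-value (limma adjusted p = 0.0472), with the 57000 strongest peaks (0.0237), with a −log10 q-value of at least 5 (0.0232) and with merging at 100 bp (0.0401).

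The medians of these 8 groups over all their tested regions were small. In WT they ran from -0.135, for both the neuronal and the serum and TGF-beta genes, to 0.137 for neural stem cell regulators, beside -0.0165 for all near intergenic regions and 0.0344 for all regions tested. In p27KO they ran from -0.133 for mitogen feedback and immediate early genes to 0.167 for astrocyte genes, beside 0.00196 and 0.0425.

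Genes of other cell types gave few regions. Near genes of microglia and blood cells 6 regions were tested and 0 called in either genotype, beside 19.2% of all regions in WT and 12.3% in p27KO. Near genes of endothelium and mural cells 11 were tested, of which 1 fell and 3 rose in WT (36.4% beside 19.2%) and 2 fell and 1 rose in p27KO (27.3% beside 12.3%), the highest shares of the 11 lists. The fall was near Dcn, which encodes the matrix proteoglycan decorin, with changes of -1.03 (limma adjusted p = 0.0119) in WT and -1.36 (limma adjusted p = 0.012) in p27KO. It was lost in WT without WT DIFF replicate 3 (limma adjusted p = 0.0598) and in p27KO without p27KO DIFF replicate 1 or 2 (0.0648 and 0.0977), and in both with peaks of a −log10 q-value of at least 5 (0.141 in WT and 0.058 in p27KO). The largest rise was near Sox17, an endothelial factor, at 1.75 (limma adjusted p = 0.00433) in WT and 1.15 (limma adjusted p = 0.0989) in p27KO, which passed without p27KO PRO replicate 1 (limma adjusted p = 0.0144). Near genes of ependymal cells 7 were tested and 1 rose in each genotype (14.3% in each), near Tmem212, with changes of 1.34 (limma adjusted p = 0.00155) in WT and 0.99 (limma adjusted p = 0.0327) in p27KO, a call lost without any p27KO library (limma adjusted p = 0.0837 to 0.203), with regions in at least 2 lists (0.0643), when ranked by −log10 p-value (0.0505) and with the groups compared fitted alone (0.0505). A change in the mix of cells and a change within cells cannot be told apart in these bulk libraries.

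Next, 17 short motifs were searched on both strands of the windows. Besides the 5 shown above they were SOX (ACAATG), RFX (GTTGCC), a core of CTCF (AGGGGGC), ETS (CCGGAA), the CArG box, TCF/LEF (CTTTGAT), STAT (TTCNNNGAA), RBPJ (GTGGGAA), homeodomain (TAATTA), the POU octamer (ATGCAAAT), FOX (TGTTTAC) and E2F (GGCGGGAA). Such letters occur by chance, so the share over all regions is given beside the shares among falls and rises, and a match is not a binding site.

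The AP-1 motif was found in 26.9% of the near intergenic regions that fell in WT, 7.74% of those tested but not called and 4.69% of those that rose, beside 8.83% of all regions. In p27KO the shares were 32.4%, 7.96% and 5.48%. Seen from the motif, 29.6% of 1013 tested regions with an AP-1 match fell in WT and 4.44% rose, with a median change of -0.365 against 0.00622 without a match. The E-boxes leaned the same way. CAGCTG was present in 33.6% of the falls and 15.9% of the rises in WT (21% of all regions), and CAGATG in 27.1% and 11.6% (17.6% of all regions).

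The NFI motif leaned towards the rises. It was found in 35.6% of regions that rose in WT, 17% of those not called and 19.6% of those that fell, beside 18.7% of all regions. In p27KO the shares were 37.2%, 17.6% and 20%. TEAD matches were found in 27.2% of the WT rises and 14.3% of the falls (14.5% of all regions), and homeodomain matches in 7.6% and 3.04% (3.91% of all regions). The CTCF core (7.36% of all regions) was less frequent among regions called in either direction. It was found in 4.3% of falls and 4.17% of rises in WT against 9.56% of those not called.

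The same motifs were then counted per library, over the near intergenic regions with a peak in it, which allows a test over libraries. An AP-1 match was held by 10.6%, 10.1% and 9.91% of them in WT PRO and 7.51%, 7.44% and 7.97% in WT DIFF. In p27KO the shares were 9.78% and 10.2% in PRO and 7.79% and 7.31% in DIFF. All 5 DIFF libraries lay below all 5 PRO libraries. The difference was -2.51 points, with -2.59 in WT and -2.42 in p27KO (exact permutation p = 0.0167, the smallest possible, adjusted over 34 tests p = 0.081).

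The NFI motif went the other way, with 18%, 18.1% and 17.6% in WT PRO and 20.5%, 20.1% and 19.5% in WT DIFF. It was found in 17.7% and 18% in p27KO PRO and 20.1% and 19.8% in p27KO DIFF, a difference of 2.12 points. The shares of TEAD, homeodomain and RBPJ motifs were higher at DIFF by 1.5, 0.541 and 0.249 points, and those of CAGATG and CAGCTG differed by -2.15 and -1.54 points. For each of these 7 motifs the exact permutation p was 0.0167, the smallest the design allows, and the adjusted p 0.081, so none passed at 0.05. With the 57000 strongest peaks of each list, 12 of the 34 tests passed, these 7 motifs among them (exact permutation, adjusted p = 0.0472). At the smallest p, a test can pass over 34 tests only when many of them have small p together. The count passing thus does not measure larger differences. Without WT DIFF replicate 3 the differences were -2.59 points for AP-1 and 2.26 for NFI (exact permutation, adjusted p = 0.081). No motif share passed between genotypes, where AP-1 differed by -0.173 points (exact permutation, adjusted p = 0.618).

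**Figure D5:**
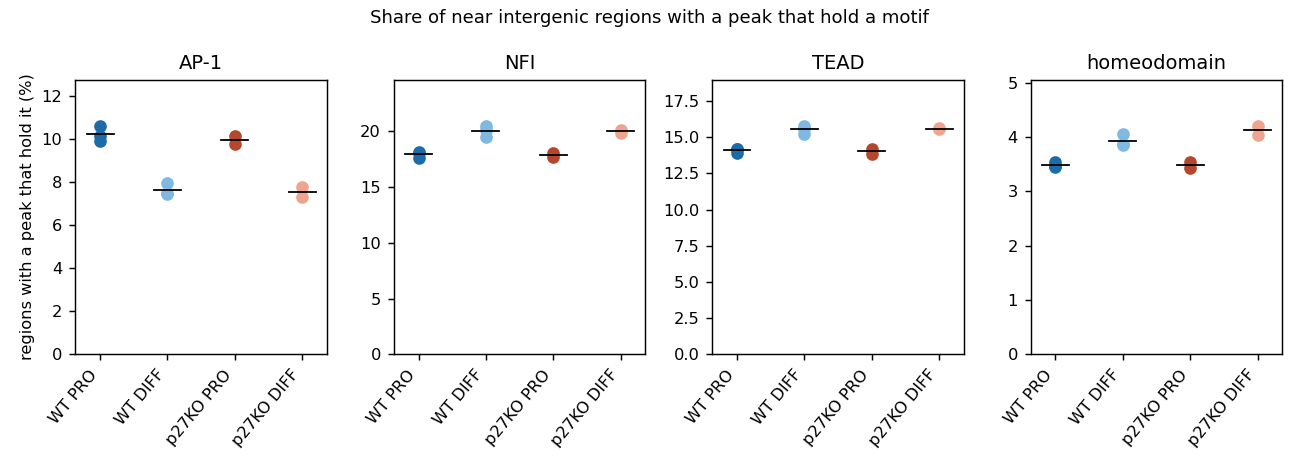
Percent of the near intergenic regions with a peak in a library whose window held the motif, with a point for each library and a line for the group mean, for 4 motifs. AP-1 points are lower in DIFF than in PRO of both genotypes (7.31% to 7.97% against 9.78% to 10.6%), and the NFI, TEAD and homeodomain points are higher.

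Between genotypes, 1 near intergenic region was called at PRO and 0 at DIFF (limma), beside 0.034% and 0.0156% of all regions. All regions included the sex chromosomes, which the near intergenic ones leave out. By autosomal class, the PRO share was 0.00934% at near intergenic regions, 0.00701% at promoters, 0.0127% at genic distal and 0.0247% at far intergenic regions. At DIFF it was 0% at near and far intergenic regions, 0.00701% at promoters and 0.00318% at genic distal regions. An unadjusted limma p under 0.05 was found at 602 of 10706 near intergenic regions at PRO and 564 at DIFF. Where nothing differs, a fraction of 0.05 is expected, so these counts were not read as differences. When regions in at least 2 lists were tested, 10 passed at PRO and 1 at DIFF. The region called (chr6:147236665-147236942) lay 27.3 kb downstream of the start of Pthlh, which encodes parathyroid hormone-related protein. It had a fold enrichment of 12.1, 13.6 and 14.9 in WT PRO and 5.82, 10.6 and 10.8 in WT DIFF and no peak in any of the 4 p27KO libraries. The p27KO minus WT difference was -3.24 ± 0.30 (SE, limma adjusted p = 0.00189) at PRO and -2.17 ± 0.30 (SE, limma adjusted p = 0.0807) at DIFF. The call was lost without p27KO PRO replicate 1 (limma adjusted p = 0.102) or 2 (0.0521). Pthlh lies on chromosome 6, as Cdkn1b does, and the region was 12.3 Mb from the Cdkn1b start. Whether the position beside the targeted gene bears on the difference was not tested.

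The regions with the highest mean percentile among those in all 10 lists were near Dpy19l1, Abcb11, Tcstv3, A630089N07Rik and Nkx2-6. The region near Dpy19l1 was 161 bp wide and had a fold enrichment of 49.6, 49.9 and 54.2 in WT PRO, 54.8, 57.6 and 50.9 in WT DIFF, 56.2 and 52.6 in p27KO PRO and 54 and 57.5 in p27KO DIFF. Its groups overlapped, as did those near Abcb11, Tcstv3 and A630089N07Rik. Near Nkx2-6 the fold enrichment was 38.4, 39.5 and 42.4 in WT PRO and 36.8, 36.9 and 31.7 in WT DIFF, without overlap, while its ranked change was -0.11 (limma adjusted p = 0.681). Several of these windows were repetitive. In the Dpy19l1 window a run of 36 bases occurred at 2 places, and 93% of the Tcstv3 and 100% of the A630089N07Rik window was soft-masked. The Abcb11 window matched the mitochondrial genome of the same assembly over 129 bp at 100% identity, 1 of 3 near intergenic regions with such a match (at least 100 bp at 90%). How far reads from other copies entered these peaks was not tested.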

How the data were processed

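ATAC-seq peak lists of 10 libraries were used, 1 list per library, with groups taken from the sample titles. The authors clipped and trimmed reads (Cutadapt, Trimmomatic), mapped them with Bowtie2 to GRCm38 (mm10) and called narrow peaks with MACS2 at a false discovery rate of 0.05. Versions, read shift and extension are not given in the sources used here. In the deposited lists the fold enrichment is a ratio of pileup to local background, and the authors also gave the −log10 p-value and −log10 q-value of each peak. Read depth is unknown, so absence of a peak means that no peak passed the calling threshold.

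Peaks overlapping by at least 1 bp were merged, gene starts and bodies were taken from GENCODE M21, and sequences from the RefSeq FASTA of GRCm38. Of the deposited fold enrichment, the highest value per region was ranked within its list and converted to a normal score, regions lacking a peak sharing the lowest rank. Tested were 70627 regions (peak in 5 or more lists), fitted with limma 3.58.1 (R 4.3.3), with 1 mean per group, and adjusted together by Benjamini-Hochberg at 0.05. The fit was tested on simulated data. Measures per library were compared by two-sided exact permutation within genotype (120 arrangements) or condition (100 arrangements). Windows were aligned with BLASTN 2.17.0+. The study's read-based test needs alignments and was not used here.

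Named regions were the 10 largest falls and rises in WT among called regions whose WT groups did not overlap and whose gene symbol was not a clone or predicted name, the regions called between genotypes, up to 2 per direction of each gene list, the 5 highest in all lists, the 8 genes with most regions and those at the limits. The windows of Id3 and Cdk1 were added after their values were seen. The regions and the 11 gene lists were chosen with earlier results of these data known.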

Additional observations from a re-analysis of the deposited data

How the results depend on the processing

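The counts of regions called kept within 1.5 times of those reported when regions were ranked by −log10 p-value, when the 57000 strongest peaks or peaks with a −log10 q-value of at least 5 were used, when merging needed 100 bp, when gene bodies were those of protein-coding genes, and when the groups compared were fitted alone, except that ranking by −log10 p-value called 1 region between genotypes at DIFF. With regions in all 10 lists, fewer regions were tested and 735 passed in WT, 340 in p27KO and 0 between genotypes at PRO. With no filter beyond 2 lists, 5 passed for the interaction, 10 between genotypes at PRO and 1 at DIFF. Leaving out 1 library at a time gave 1231 to 1742 calls in WT (lowest without WT PRO replicate 2; also 1283 without WT PRO replicate 1, 1302 without WT PRO replicate 3 and 1310 without WT DIFF replicate 1), 466 to 1136 in p27KO (466 and 486 without p27KO DIFF replicates 1 and 2, 634 and 483 without p27KO PRO replicates 1 and 2) and 0 to 2 between genotypes at PRO. Same-numbered WT PRO and DIFF libraries had correlated deviations of 0.0575, 0.0647 and 0.0328, each the highest for its number, and p27KO ones -0.141, so numbers were not taken as pairs. With the replicate block, 1874 passed in WT, 1145 in p27KO and 0 for the interaction, the call of Pthlh was kept (limma adjusted p = 0.0066), and of the named regions the p27KO calls of Tmem212 (0.0606, no longer passing) and Sox17 (0.0313, newly passing) alone changed. With the p27KO numbers crossed in the block, an alternative added after seeing the data, 2117, 1310 and 0 passed.

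By presence, the 57000 strongest peaks gave 418 regions gained in WT and 889 lost in p27KO. Fewer lists make the presence rule easier to meet, and leaving out 1 library gave 757 to 1716 lost and 245 to 513 gained in WT, and 1883 to 3205 lost and 472 to 975 gained in p27KO. Per-library differences without 1 library ranged from -2764 to -1770 regions with a peak (DIFF minus PRO) and 194 to 1188 (p27KO minus WT), the latter passing without WT DIFF replicate 3 (exact permutation, adjusted p = 0.0333). They ranged from -1.02 to -0.586 points (DIFF minus PRO) and -0.0766 to 0.354 (p27KO minus WT) for the share of the list, and -1.5 to -0.356 (DIFF minus PRO) and 0.873 to 2.02 (p27KO minus WT) for the median percentile. Against promoters they ranged from -10.3 to -6.22 (DIFF minus PRO) and 0.98 to 5.09 (p27KO minus WT, passing at 5.09 without WT DIFF replicate 3), against genic distal regions from -3.17 to -2.43 (DIFF minus PRO), and against far intergenic regions from -2.87 without p27KO DIFF replicate 2 to 0.885 without replicate 1 (p27KO minus WT) and from -4.13 to -0.378 (DIFF minus PRO). The number of motif tests passing was 12 with the 57000 strongest peaks and 0 with a narrower window.

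Of 1435 alternative values for the named regions, 1341 kept their sign and side of the threshold, 85 no longer passed, 9 newly passed and 0 changed sign. Peak lists without read counts limit all of this, since a missing peak can lie just under the calling threshold of a shallower library.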

Other observations

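The genes with the most near intergenic regions differed in how alike their regions were. Upstream of Atg7, an autophagy gene, 17 regions lay between 6559 and 48606 bp from the start, with a median spacing of 2482 bp between summits (2220 to 4973 bp). All 17 windows matched at least 1 other over 100 bp or more at 80% identity or more, in 94 of 136 pairs, and 12 summits fell in soft-masked repeats. None of the 13 tested was called in either genotype by limma (0 lower and 0 higher), beside 19.2% of all regions in WT and 12.3% in p27KO. Upstream of Apba2, which encodes an adaptor of the amyloid precursor protein, the 11 regions matched one another in 55 of 55 pairs. There 1 of 6 tested rose in WT, beside 9.15% of all regions. Near Fos the 11 regions gave 0 matching pairs of 55 and no summit in a repeat (0 of 11). Near Fcgr3, an Fc receptor gene of myeloid cells, 6 of 55 pairs matched. Here 0 of 9 tested were called in either genotype, beside 19.2% of all regions in WT and 12.3% in p27KO. The neighbourhoods of Gm17019, Gm21119, 4930467E23Rik and Gm10354 held 14, 14, 12 and 11 regions with 0 matching pairs in each. Of these 5, 8, 8 and 7 were tested, and 0, 0, 2 and 1 rose in WT by limma, beside 9.15% of all regions. Regions made of near-identical copies can share reads that map to several places, and how far they did so was not tested.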
